A study of Mus musculus with 2 samples.

Results

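The collagen genes of the mouse liver are described here from 2 arrays. They were chosen by name: every probe that is not a control and whose gene name in the scanner files is Col followed by a number, the letter a and a number. That rule matched 41 names, of which Col4a3bp encodes a ceramide transfer protein and no collagen, so that 40 collagen genes remained out of 31894 gene names on the array. They were read by 59 of 39429 probes. By the kind of assembly their chains form, 11 are fibrillar collagens, 8 are basement membrane collagens and 21 belong to other classes.

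Cy3-labelled total liver RNA was read on 1-colour Agilent arrays. The study compared wild-type liver with liver of the genotype Alb-Cre;CAG-floxed neo-Snail, both of strain C57BL/6, by 1 array each. In Alb-Cre mice the albumin promoter drives Cre recombinase in hepatocytes. The transgene places Snail, a zinc-finger repressor known from epithelial-mesenchymal transition, under the CAG promoter behind a floxed neo cassette, and the series title speaks of forced Snail expression in hepatocytes with steatohepatitis and tumours. Sex, age, diet and tumour content of the samples are not stated in the labels. The Snai1 probe read 23.2 in wild-type and 22.3 in the other liver, a log2 difference of -0.44 after scaling. It was thus not higher, against the label, and the second sample is called the library labelled Snail. Both signals lay near the lowest well above background, 13.8 in wild-type and 12.9 in the other liver. Whether the probe reads the transcript of the transgene was not determined, so its value does not check the genotype.

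Collagens are built of chains that wind into a triple helix, in which glycine recurs at a fixed spacing. Fibrillar collagens such as types I, III and V form the fibres of scar tissue, whereas type IV collagen and its partners form the sheet-like basement membrane, which in healthy liver is sparse along the sinusoids. In liver, hepatic stellate cells and portal fibroblasts are known as the main makers of fibrillar collagen, and the collagen XVIII of hepatocytes is the source of the fragment endostatin.

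The repeat of glycine can be seen in the probes themselves. A probe was counted as helix-coding when it held at least 4 glycine codons, 9 bases apart, in an open reading frame; this was so for 4 of the 59 collagen probes (6.78%) and for 24 of all 39429 probes (0.0609%). Those of Col14a1 and Col16a1 are shown because another probe of the same gene was well above background on both arrays. Both are 60 bases long and lie on the plus strand of build mm9, and capitals mark the longest run of glycine codons at that spacing. Col14a1 has 3 more in the same frame before its run, left in lower case. That the probes lie in coding sequence is read from this frame alone.
Col14a1, chr15:55347733-55347792, plus strand: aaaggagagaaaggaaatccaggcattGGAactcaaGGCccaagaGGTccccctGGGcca
Col16a1, chr4:129756457-129756516, plus strand: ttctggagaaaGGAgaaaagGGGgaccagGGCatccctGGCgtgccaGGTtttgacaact
The Col14a1 probe was well above background on both arrays and is part of that gene's value. The Col16a1 probe read 2.88 in wild-type and 6.15 in the library labelled Snail. It was well above background on neither array, although another probe of the gene was bright on both. Whether the other probes lie in coding or untranslated sequence was not determined here.

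A gene was counted as measured when a probe was well above background, by the scanner software's own call, on both arrays. Of the 40 collagens, 16 (40%) were measured in this sense, beside 48.5% of all 31894 genes. Of all spots that are no controls, 50.7% in wild-type and 54% in the library labelled Snail were well above background. Another 21 collagens were well above background on neither array, 1 was so only in the library labelled Snail and 2 only in wild-type. Below background is short here for not called well above it, whatever the signal. Measured genes made up 5 of 11 fibrillar collagens, 4 of 8 basement membrane collagens and 7 of 21 others.

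**Figure D1:**
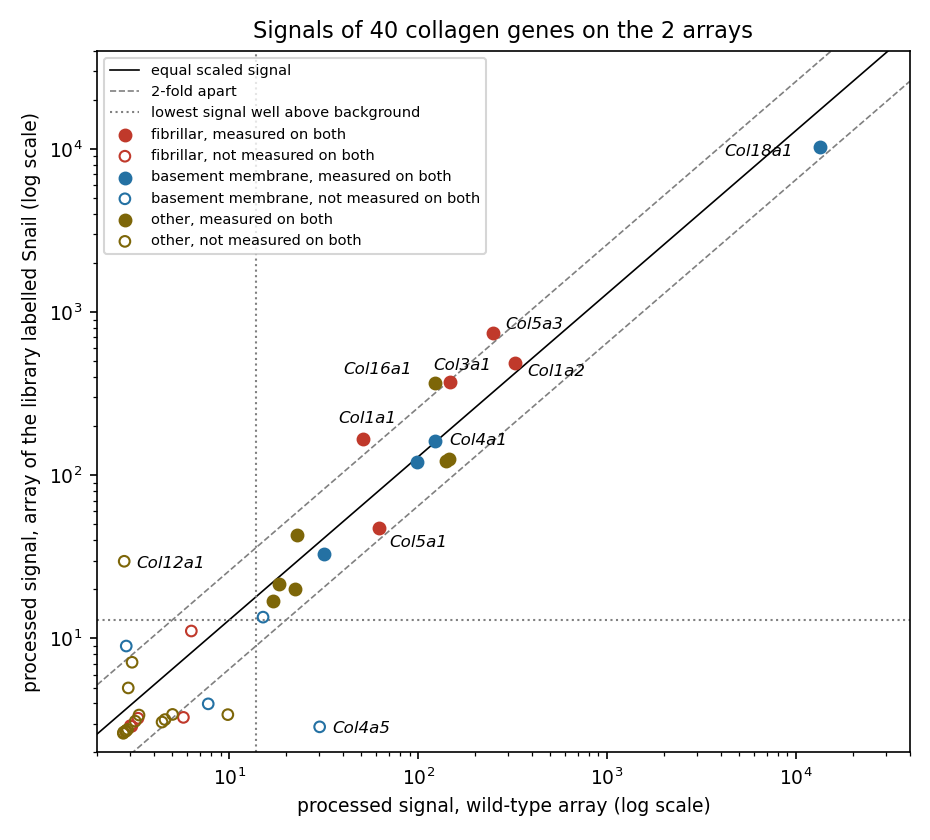
Processed signal of each of the 40 collagen genes on the wild-type array (x, log scale) and on the array of the library labelled Snail (y, log scale), with filled points for genes measured on both arrays, a solid line for equal signal after scaling and dashed lines 2-fold from it. Col1a1, Col5a3 and Col16a1 lie above the upper dashed line, Col3a1 lies just under it at 1.94-fold, and no filled point lies below the lower one.

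All signals below are processed signals before scaling. All log2 differences and folds are of signals scaled by each array's 75th percentile, as the library labelled Snail against wild-type. With 1 array per group no difference has a replicate check and no test was possible, so genes were counted by size, at least 2-fold. At that size 3 of the 16 measured collagens (18.8%) were higher, beside 3.96% of all 15466 measured genes, and 0 were lower, beside 6.34%. Of all genes with signals from 100 to 1000, where 8 of the 16 collagens lie, 4.24% were at least 2-fold higher. Under 100, where 7 of the 16 lie, Col1a1 among them, it was 5.06%. The technical spread, the SD of the log2 difference between spots of probes printed at least 5 times, had a median of 0.19 for signals under 100, 0.07 from 100 to 1000 and 0.04 above. It covers array noise and no difference between animals.

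The fibrillar collagens stood on the higher side, with a median log2 difference of 0.95 over the 5 measured genes, from -0.76 to 1.32, beside a median of -0.03 over all measured genes. Col1a1, Col5a3, Col3a1 and Col1a2 were higher and Col5a1 was lower. In whole tissue, more cells of a collagen-making type and more RNA per cell cannot be told apart.

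Col1a1 encodes the alpha1 chain of type I collagen, the main collagen of scar. Its probe (mm9 chr11:94813115-94813174, plus strand) read 51.3 in wild-type and 166.2 in the library labelled Snail, 2.5-fold higher, a log2 difference of 1.32. Col1a2 encodes the partner chain of the same molecule, which holds a pair of alpha1 chains for each alpha2 chain. Its probe (chr6:4490619-4490678, plus strand) read 326.2 and 485.9, 1.15-fold higher, a log2 difference of 0.20. The chains of type I collagen thus differed in their change by 1.12 on the log2 scale, 2.18-fold.

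Col3a1 encodes the only chain of type III collagen, which forms fine reticular fibres with type I. The probe (chr1:45405589-45405648, plus strand) read 147.4 in wild-type and 370.5 in the library labelled Snail, 1.94-fold higher, a log2 difference of 0.95. Its difference was 0.37 below that of Col1a1. For log2 differences at the signal level of Col1a1, other probes had a median technical SD of 0.19. The Col1a1 probe, with 1 spot, has no spread of its own.

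The chains of type V collagen, which sits inside type I fibrils and sets their width, went different ways. Col5a3 (chr9:20574592-20574651, minus strand) read 247.6 in wild-type and 745.5 in the library labelled Snail, 2.32-fold higher, a log2 difference of 1.21. Col5a1 (chr2:27892892-27892951, plus strand) read 61.8 and 47.3, 1.7-fold lower, a log2 difference of -0.76. Col5a2 was below background on both arrays, at 3.05 and 2.89. Between Col5a3 and Col5a1 the differences were 1.98 apart on the log2 scale, the widest gap among the 5 chain pairs compared. The remaining fibrillar genes, Col2a1 and Col11a1 and Col11a2 of cartilage and the minor chains Col24a1 and Col27a1, were below background on both arrays, the brightest being Col27a1 at 6.3 and 11.1.

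**Figure D2:**
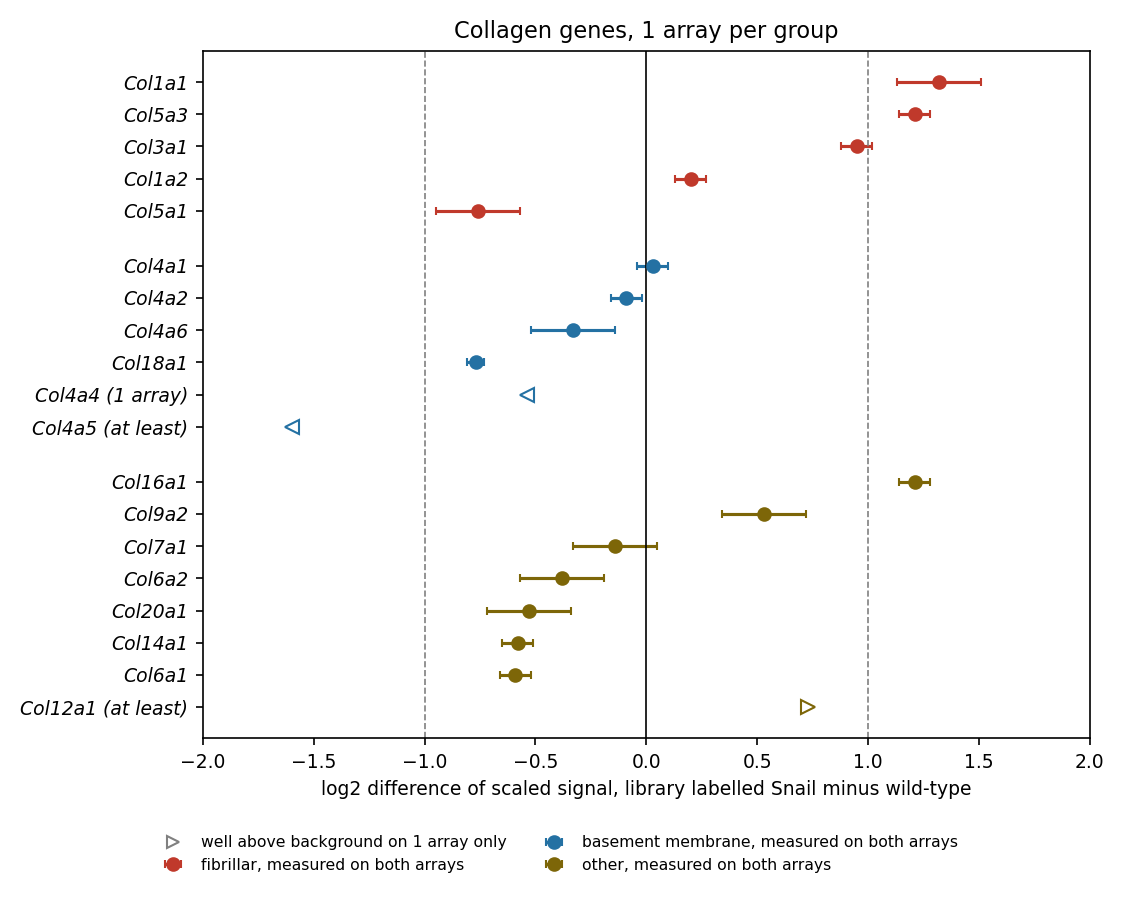
Log2 difference of the scaled signal, library labelled Snail minus wild-type, of each collagen gene seen on at least 1 array (rows, grouped as fibrillar, basement membrane and other), with bars for 1 technical SD of spots of like signal and open triangles for genes well above background on 1 array only. Among fibrillar collagens 4 of 5 points lie above 0, whereas the basement membrane points run from -0.77 to 0.03.

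The basement membrane collagens had a median of -0.21 over 4 measured genes, 1.17 below the fibrillar median. With the genes seen on 1 array at their bound or ratio it was -0.43. None was 2-fold higher or lower among those measured on both arrays.

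Col4a1 and Col4a2 encode the chains of the common type IV collagen, and lie next to each other on chromosome 8. Col4a1 was printed 10 times on each array, which shows the scatter of a single probe. Over its 9 usable spots the wild-type signals ran from 117.1 to 130.6 with a median of 121.0, and those of the library labelled Snail ran from 148.4 to 178.4 with a median of 162.9. After scaling, the spot differences ran from -0.12 to 0.20 around 0.03, with an SD of 0.09, since the 75th percentile of all spots was also higher on that array, at 302.1 against 232.7. Col4a2 read 98.8 and 120.1, a log2 difference of -0.09. The Col4a1 difference lay within the SD of its own spots, and that of Col4a2 was slightly larger than the technical spread of 0.07.

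The rarer type IV chains belong to the basement membranes of kidney and other specialised sites. Col4a5, X-linked, read 30.1 in wild-type and 2.87 in the library labelled Snail, where it was not well above background, and was at least 3.03-fold lower. Only 1.45% of all genes were well above background in wild-type alone. Its neighbour Col4a6 read 31.9 and 33.0, a log2 difference of -0.33, with a second probe below background on both arrays. Col4a4 was well above background in wild-type alone, by 1 of 3 probes at 15.1 against 13.5, an observed ratio 1.45-fold lower. Col4a3 was so on neither array.

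Col18a1 encodes the chain of collagen XVIII. Its signals were 13444 in wild-type and 10257 in the library labelled Snail, 1.7-fold lower, a log2 difference of -0.77. Its pair of probes on chromosome 10 gave -0.81 and -0.72, and over the ways of processing the gene ran from -0.77 to -0.51, the smallest difference being under quantile normalization. Col15a1, the related collagen of vessel and muscle basement membranes, was below background with all 3 of its probes.

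The other collagens had a median of -0.38 over 7 measured genes, 1.33 below the fibrillar median, with Col16a1 apart from the rest. Col16a1, Col14a1, Col12a1, Col9a2 and Col20a1 belong to the FACIT class, collagens with interrupted helices that attach to the surface of fibrils. Col16a1 (chr4:129776333-129776392, plus strand) read 122.7 in wild-type and 369.4 in the library labelled Snail, 2.32-fold higher, a log2 difference of 1.21. A neighbouring probe of the gene read 12.7 and 38.7 and was well above background only in the second library. The helix-coding probe shown above was below background on both. So was a further probe described as collagen XVI, but carrying no Col name, at 2.95 and 2.86.

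Col14a1 went the other way, with 140.2 in wild-type and 121.5 in the library labelled Snail, 1.5-fold lower. Its probes gave -0.68 at 784.5 and 635.5 and, for the helix-coding one, -0.49 at 25.0 and 23.2. Col12a1, a close relative of Col14a1, was seen only in the library labelled Snail, at 29.7 against 2.78, at least 1.66-fold higher. Of all genes 4.37% were seen only there. Another probe described in the files as collagen XII, but carrying no Col name, was below background on both arrays at 2.78 and 2.65. Col9a2 read 22.8 and 42.8, 1.44-fold higher, and Col20a1 read 22.3 and 20.0, 1.45-fold lower.

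Type VI collagen forms beaded filaments around cells from 3 different chains. Col6a1 read 145.2 in wild-type and 125.3 in the library labelled Snail, 1.5-fold lower, and its neighbour Col6a2 read 17.0 and 16.9, 1.3-fold lower. The usual partner chain alpha3(VI) had no probe under a Col name. A probe described as a fragment of it read 34.0 and 69.1, 1.57-fold higher, against the direction of the named chains. It was 1 of 11 collagen probes outside the naming rule, found through their accession or description after the values were known, and the other 10 were below background on both arrays.

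Col7a1, the anchoring fibril collagen of skin, read 18.4 and 21.7, a log2 difference of -0.14 within the technical spread at that signal. The collagens of cartilage growth plate and cornea, Col8a1, Col8a2 and Col10a1, and the membrane-spanning Col13a1, Col17a1, Col23a1 and Col25a1 were all below background on both arrays, as were Col6a6, Col9a1, Col9a3, Col19a1, Col22a1 and Col28a1.

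Promoters of 5 collagens are shown because their log2 differences ran from -0.76 to 1.21. Col1a2, Col3a1, Col5a1 and Col5a3 are the measured fibrillar genes with an entry in the RefSeq table used, and Col16a1 is the remaining gene past 2-fold. Each is the 250 bases before the transcription start, from RefSeq on GRCm38.p6, read 5′ to 3′ along the gene. Capitals mark matches on either strand to 4 motifs, none of which contains another: the E-box bound by Snail proteins, spelled CACCTG, the CCAAT box under its own letters, the GC box GGGCGG and the TATA box TATAAA.
Col3a1, chr1:45311288-45311537, plus strand: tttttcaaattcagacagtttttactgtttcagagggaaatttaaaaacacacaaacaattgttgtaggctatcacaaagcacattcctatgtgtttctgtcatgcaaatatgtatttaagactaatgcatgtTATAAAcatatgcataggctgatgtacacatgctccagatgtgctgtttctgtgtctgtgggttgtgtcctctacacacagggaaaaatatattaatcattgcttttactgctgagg
Col1a2, chr6:4505368-4505617, plus strand: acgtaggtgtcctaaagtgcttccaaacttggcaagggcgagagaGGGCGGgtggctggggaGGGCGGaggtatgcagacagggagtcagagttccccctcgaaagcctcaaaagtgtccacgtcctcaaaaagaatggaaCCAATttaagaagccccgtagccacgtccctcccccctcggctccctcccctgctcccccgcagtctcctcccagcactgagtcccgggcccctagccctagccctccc
Col5a3, chr9:20815068-20815317, minus strand: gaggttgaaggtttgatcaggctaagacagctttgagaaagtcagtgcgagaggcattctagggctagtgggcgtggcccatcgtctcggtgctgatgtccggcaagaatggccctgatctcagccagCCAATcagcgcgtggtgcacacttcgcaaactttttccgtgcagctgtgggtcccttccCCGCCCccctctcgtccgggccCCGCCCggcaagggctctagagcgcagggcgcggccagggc
Col5a1, chr2:27886175-27886424, plus strand: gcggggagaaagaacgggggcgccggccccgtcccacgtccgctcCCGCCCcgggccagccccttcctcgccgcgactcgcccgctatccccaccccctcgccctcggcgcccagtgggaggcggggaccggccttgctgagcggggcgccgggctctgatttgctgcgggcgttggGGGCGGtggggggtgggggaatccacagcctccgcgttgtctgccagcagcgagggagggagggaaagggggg
Col16a1, chr4:130047590-130047839, plus strand: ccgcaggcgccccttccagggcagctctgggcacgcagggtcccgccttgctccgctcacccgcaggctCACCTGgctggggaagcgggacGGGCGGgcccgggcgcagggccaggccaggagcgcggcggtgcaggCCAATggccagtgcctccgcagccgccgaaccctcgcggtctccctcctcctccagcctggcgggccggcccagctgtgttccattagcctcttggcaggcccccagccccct
Col3a1 alone of these holds a TATAAA match, and its window is the poorest in G and C at 35.2%, beside 62.0% for Col1a2, 62.8% for Col5a3, 75.6% for Col16a1 and 76.4% for Col5a1. TATAAA was found in 12.4% of 32851 promoter windows. The E-box letters occurred in Col16a1 and in none of the shown fibrillar windows, and over all 35 windows of 32 collagen genes they occurred in 3, those of Col16a1, Col4a4 and Col8a1, beside 17.2% of all windows. The GC box letters occurred in 20 of 35 collagen windows beside 32.7% of all, and CCAAT in 12 of 35 beside 33.8%. A match is a description of the letters in this window, and no match says nothing of the factor.

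**Figure D3:**
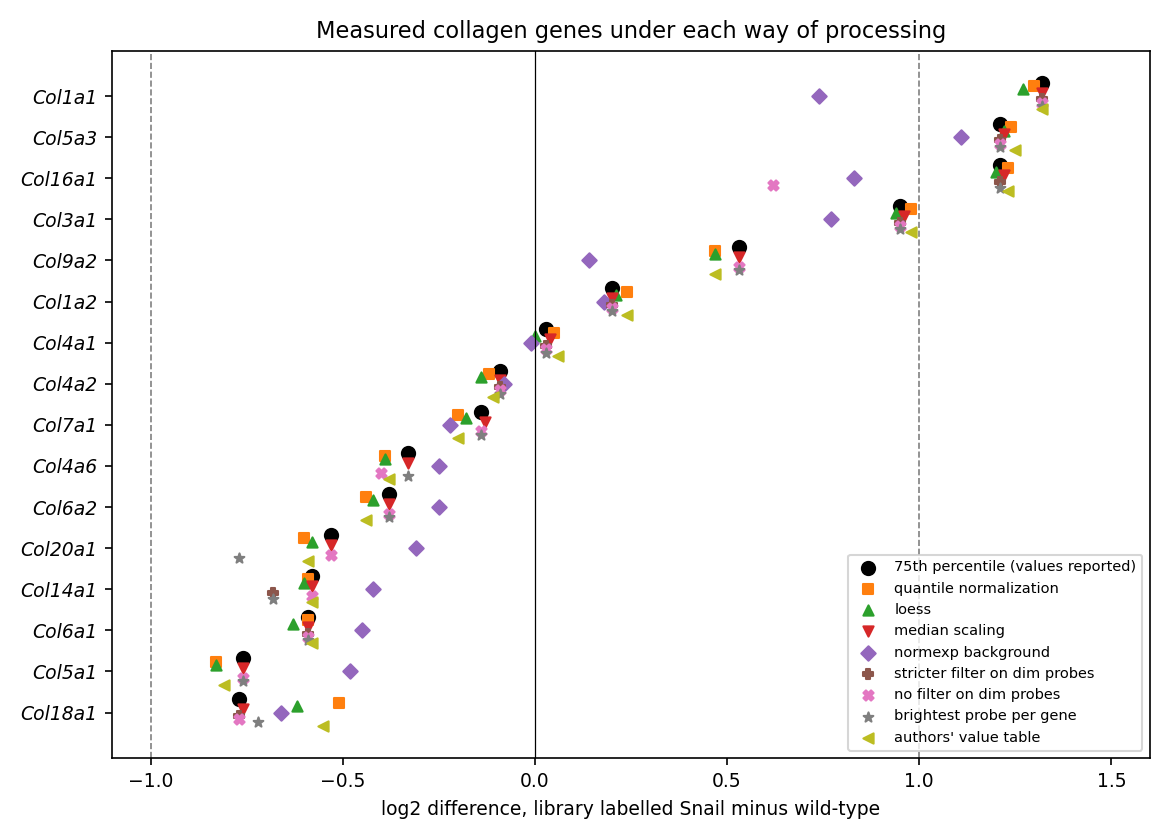
Log2 difference of each of the 16 measured collagens (rows) under the reported processing (black) and up to 8 other ways of processing (coloured symbols). Where values exist, which under the stricter filter is so for 10 genes, 15 of the 16 lie on 1 side of 0, and Col4a1 runs from -0.01 to 0.06.

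Normexp background correction with an offset of 50 pulls dim probes toward 0. Under it Col5a3 alone of the collagens stayed past 2-fold, at a log2 difference of 1.11, while Col1a1 was at 0.74 and Col16a1 at 0.83. Without a filter on dim probes Col16a1, averaged over its 3 probes, was at 0.62. Over all settings Col3a1 ran from 0.77 to 0.98 and never reached 2-fold, and Col1a2 ran from 0.18 to 0.24.

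The genes listed for collagen folding and hydroxylation, not all of them enzymes, differed in both directions by less than 2-fold. Of 23 such genes 20 were measured, 0 were 2-fold higher or lower, and their median was -0.14. Serpinh1, the collagen chaperone HSP47, read 237.7 and 412.3, 1.34-fold higher. Plod3, a lysyl hydroxylase and glycosyltransferase, read 340.1 and 649.5, 1.47-fold higher, and the prolyl hydroxylase subunits P4ha1 and P4ha2 were 1.46-fold and 1.31-fold higher. Ppib, the cyclophilin that turns prolines in the folding chain, was 1.91-fold lower. P3h4 and P3h3 of the prolyl 3-hydroxylase family were 1.79-fold and 1.72-fold lower. Plod2, known for fibrotic crosslinks, was below background on both arrays.

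Of the 13 genes for procollagen processing and crosslinking, 9 were measured with 0 past 2-fold and a median of 0.03. Bmp1, the protease that cuts the C-propeptide, was 1.51-fold lower, at 1169 and 1008. Its enhancer Pcolce was 1.05-fold higher and the related protease Tll1 1.7-fold lower. Lox, the lysyl oxidase that crosslinks fibrils, was below background at 3.12 and 3.02, whereas Loxl2 was 1.19-fold higher and Loxl1 was seen only in the library labelled Snail, at least 1.02-fold higher. Adamts3, an N-propeptide protease, was at least 1.57-fold higher.

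Among 11 collagen receptors 6 were measured, with 0 past 2-fold and a median of 0.23. Ddr2, the receptor tyrosine kinase for fibrillar collagen, read 53.5 and 37.5, 1.85-fold lower, and Ddr1 was below background. Itga1 and its partner Itgb1 were 1.22-fold and 1.13-fold higher, Itga10 1.54-fold higher, and Itga2 was below background.

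Of 14 genes for proteins that bind fibrils 7 were measured, with a median of -0.28. Of these 5 were below 0, with 1 at least 2-fold lower and 0 higher. Over all 15466 measured genes 8129 were below 0 and 6.34% at least 2-fold lower. Lum, the proteoglycan lumican on type I fibrils, read 262.2 and 110.8, 3.07-fold lower. Dcn, decorin, read 11549 and 7804, 1.92-fold lower, and Fn1, fibronectin, was 1.74-fold lower. Sparc, a collagen-binding matrix protein, was 1.05-fold lower, and Fmod was seen only in wild-type, at least 1.48-fold lower.

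The partners of type IV collagen in the basement membrane contained larger differences than the collagens themselves. Of 13, 12 were measured, 5 above and 7 below 0, with a median of -0.02. Of these 2 were at least 2-fold higher, beside 3.96% of all measured genes, and 0 lower, beside 6.34%. Nid1, the link protein between laminin and type IV collagen, read 199.8 and 1528, 5.89-fold higher, by the 1 of its 3 probes that was measured on both arrays. Nid2 read 35.8 and 132.9, 2.85-fold higher, a log2 difference of 1.51 that was 0.68 under normexp. The laminin chains differed among themselves, Lama4 being 1.89-fold higher and Lamc1 1.91-fold lower, and Hspg2, perlecan, was 1.01-fold lower. Fbln1, which binds nidogen, was seen only in the library labelled Snail, by 1 of its 2 probes. That probe read 123.0 against 3.97, at least 6.86-fold higher.

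Of 11 genes of profibrotic signalling 10 were measured, 2 were at least 2-fold higher, 0 lower, with a median of 0.40, beside 3.96% of all genes at least 2-fold higher. Ccn2, a matricellular protein induced by TGF-beta, read 36.8 and 150.5, 3.15-fold higher. Tgfbr2, a TGF-beta receptor, read 164.0 and 449.2, 2.11-fold higher, and Tgfb1 itself was 1.15-fold higher. Under normexp neither Ccn2, at a log2 difference of 0.81, nor Tgfbr2, at 0.85, was past 2-fold. Pdgfb and Pdgfc, ligands of stellate cell receptors, were 1.74-fold and 1.57-fold higher.

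**Figure D4:**
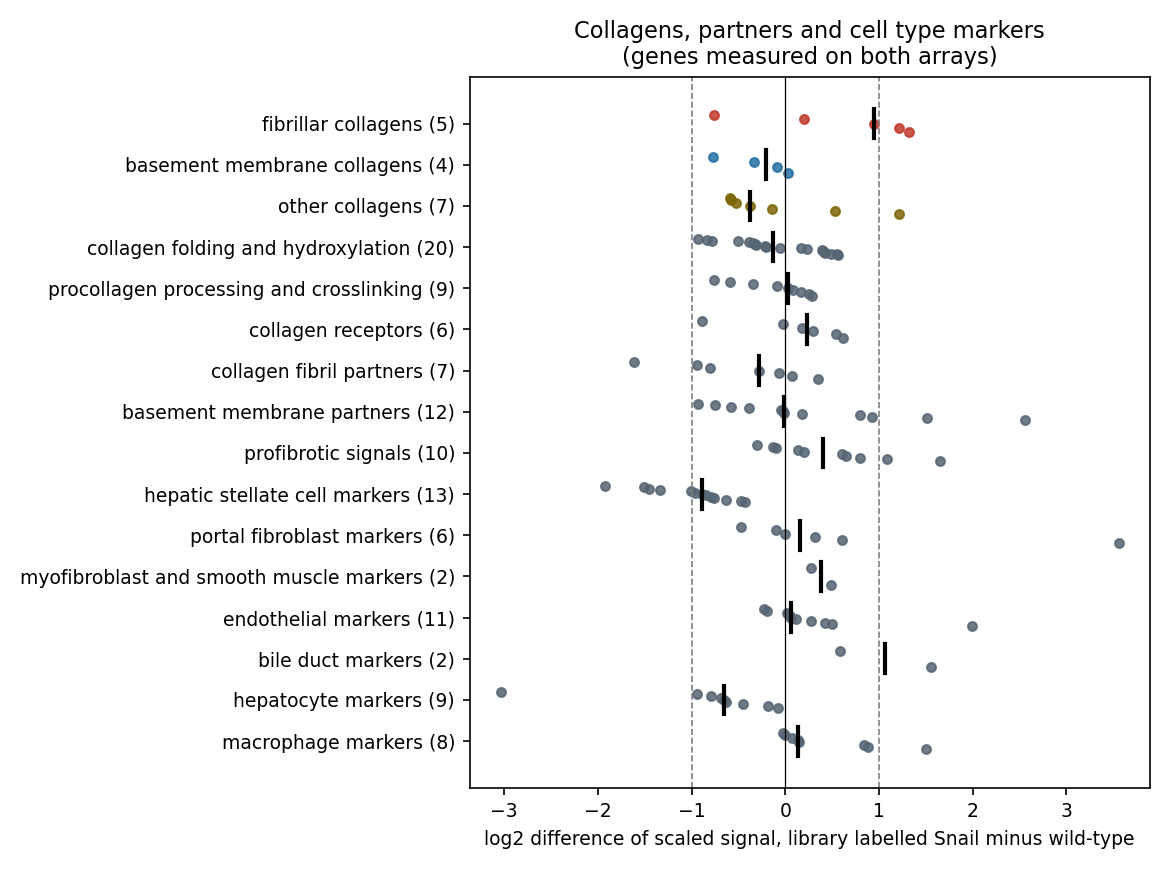
Log2 difference, library labelled Snail minus wild-type, of every measured gene (points) of the collagen sets, the partner lists and the cell type marker lists (rows, with the number measured), with a black bar at each median. The fibrillar collagen median lies at 0.95 and that of stellate cell markers at -0.89.

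Markers of hepatic stellate cells were lower in the library in which the fibrillar chains were mostly higher. Of 14 stellate cell markers 13 were measured, all 13 were below 0, 5 were at least 2-fold lower, and the median was -0.89. Of all 15466 measured genes 8129 were below 0 and 6.34% at least 2-fold lower. Colec10, Angptl6 and Ecm1 were 3.79-fold, 2.86-fold and 2.54-fold lower, Pdgfrb was 1.38-fold lower, and Des was below background. Of 10 portal fibroblast markers 6 were measured, 3 above and 3 below 0, with a median of 0.16, and 3 were below background on both arrays. Mfap4 was 1.51-fold higher and Msln 1.39-fold lower. Only 1 gene was at least 2-fold higher, beside 3.96% of all measured genes, and 0 were lower. That gene was Gpx3, a secreted glutathione peroxidase, at 23.7 and 364.3, 11.8-fold higher. Its wild-type signal lay near the lowest well above background, 13.8. Pi16 was seen only in the library labelled Snail, at 50.2 against 12.2, at least 2.8-fold higher.

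Of 8 myofibroblast and smooth muscle markers only Tagln and Myl9 were measured, 1.4-fold and 1.2-fold higher. Acta2, the classic actin of activated stellate cells, was seen only in the library labelled Snail, at 36.1 against 14.4, an observed ratio 1.93-fold higher, and Timp1, Cnn1 and Myh11 were below background on both arrays. The part of these cells in the collagen differences was not tested.

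Other cells of the liver carry basement membranes or few collagens. Of 12 endothelial markers 11 were measured, 9 above 0 and 2 below, with a median of 0.06. Pecam1 was 1.2-fold higher. Lyve1, the 1 past 2-fold, was 3.98-fold higher, beside 3.96% of all measured genes at least 2-fold higher. Of 7 bile duct markers 2 were measured, Sox9 at 2.92-fold and Spp1 at 1.49-fold higher, while Krt7, Krt19 and Epcam were below background. All 9 measured hepatocyte markers were below 0 with a median of -0.65, beside 8129 of all 15466 measured genes below 0. Of these markers 1, Apoa1, was at least 2-fold lower, at 8.22-fold. Among all genes with signals from 1000 up, where these markers lie, 7.47% were at least 2-fold lower and the median was -0.1. Of 9 macrophage markers 8 were measured, 7 above 0 and 1 below, with a median of 0.14. At least 2-fold higher was 1, Marco at 2.83-fold, beside 3.96% of all measured genes. Trem2 and Lgals3 were 1.85-fold and 1.79-fold higher, and Clec4f, next in size, only 1.11-fold. All 6 capsule mesothelial markers were below background on both arrays. What these cell types contributed to any collagen value was not tested.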

How the data were processed

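Liver RNA of 1 mouse per genotype was measured on 1-colour arrays. The authors deposited intensity values, background-subtracted within an array but unscaled across arrays per the file headers, with flags for outlying spots and spots well above background. The submitters' processing notes name Agilent Feature Extraction 9.5.1.1. Coordinates are on mm9, per the file headers. A value table, also deposited by the authors, is of unstated scale and centring. Its intensity values were linear and followed their own array (r of log2 values 1.00). The median, 17.3, lowest value, 2.65, and highest value, 291031, were the same on both arrays, as quantile normalization gives. It served as an alternative source, but it is no check separate from the quantile setting.

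Here each array's processed signals were divided by their 75th percentile and log2-transformed, with controls and the 287 outlier spots left out. Spots of a probe, then the probes of a gene well above background on both arrays, were averaged. A gene seen on 1 array has a bound against the lowest signal well above background, 13.8 in wild-type and 12.9 in the other library, written as at least N-fold, or the observed ratio where its own dim signal was higher. Genes below background on both have no fold. Names came through RefSeq accessions (GRCm38.p6) for 26055 of 39429 probes and otherwise from the files, except that collagens were taken by the files' own names.

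With 1 array per group there was no test. The calculation was tested on simulated data. The members and lists were chosen with earlier results of these data known. Named genes are all collagens, up to 4 measured members with the largest differences and 2 with the largest bounds of each list, and a set of standard collagen partners and markers. The lists cover collagen folding and hydroxylation, procollagen processing and crosslinking, collagen receptors, fibril partners, basement membrane partners, profibrotic signals, and markers of stellate cells, portal fibroblasts, myofibroblasts and smooth muscle, endothelium, bile duct, hepatocytes, macrophages and capsule mesothelium. Alternatives were quantile, loess and median scaling, normexp background, stricter and no filters on dim probes, the brightest probe per gene and the value table, run with R 4.3.3, limma 3.58.1, Python 3.11.15, numpy 2.4.6 and pandas 2.3.3. The number of arrays limits the precision.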

Additional observations from a re-analysis of the deposited data

How the results depend on the processing

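Of the 16 measured collagens 15 kept their direction under each alternative that gave them a value, which the stricter filter did for 10, and Col4a1 lay at -0.01 under normexp. The count of collagens at least 2-fold higher was 3 except under normexp, where it was 1, and with no filter on dim probes, where it was 2, and the count at least 2-fold lower was 0 except with no filter, where it was 1. The fibrillar median of 0.95 became 0.74 under normexp, 1.08 with the stricter filter (signal of at least 50 on both arrays) and -0.47 with no filter. The basement membrane median of -0.21 became -0.09 with the stricter filter and -0.47 with no filter, and the median of the other collagens, -0.38, became -0.25, -0.59 and -0.47 under normexp, the stricter filter and no filter. The value of -0.47 is the difference of the arrays' floors, to which most collagens were raised in that setting, and it was also the median of all genes there. Counts past 2-fold in the partner and marker lists came to 15 and ran from 10 to 16. Normexp moved 16 of 22 single genes by more than their technical spread, and median scaling moved 0. Quantile, loess, no filter, the brightest probe and the value table each moved 2, and the stricter filter moved 1 and left 13. No paired analysis was possible because each group has 1 array. Signal over background limits the 21 collagens below background on both arrays, for which absence of the RNA is not shown.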
